A study of Oreochromis niloticus with 16 samples.

Results

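The microRNA families miR-219 and miR-338 were followed through 16 small RNA libraries of Nile tilapia (Oreochromis niloticus). The members are all entries whose mature name is miR-219 or miR-338 with an optional letter, from either arm of the hairpin and from every copy. This rule gave 12 of the 734 named entries, 8 of 577 mature names and 6 of 368 hairpins. miR-219 has 3 hairpins, which share the name miR-219-5p on the 5p arm and carry miR-219-3p-2 (mir-219-3), miR-219-3p (mir-219-1) and miR-219-3p-3 (mir-219-2) on the 3p arm. miR-338 also has 3 hairpins, which share miR-338-3p and carry miR-338-5p (mir-338-1), miR-338-5p-2 (mir-338-2) and miR-338-5p-3 (mir-338-3).

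As background, a microRNA hairpin is cut into a short duplex, and the strand that is kept, from the 5p or the 3p side, guides the repression of messenger RNAs. miR-219 and miR-338 are best known from the oligodendrocyte, the myelinating glial cell of the central nervous system, where in mouse and zebrafish they promote the step from dividing precursor to myelinating cell. In mouse they act on messengers that hold the precursor state, such as those of the receptor Pdgfra and of the transcription factors Sox6 and Hes5. In mammals mir-338 lies in an intron of AATK, a kinase gene active in neurons, and mouse miR-219 has also been tied to the circadian clock.

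The fish were of the Chitralada strain, and 1 library was made for each stage or for each combination of tissue and sex. The stages were whole embryos of 2, 3, 4 and 5 days post fertilization (dpf) and larvae of 10 dpf. Adults aged 6 months gave female and male brain, eye of mixed sex, female and male red muscle, female and male white muscle, female heart, liver of mixed sex, ovary and testis. That age is from the methods of the paper, whose search example lists another age, in days, for adult male white muscle. The sample names of the female red and white muscle share a code, and so do those of the female brain and the ovary. Each shared code was read as a single fish, which the labels do not state. The p-values given here therefore describe the spread between libraries that may not all be separate fish.

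A read that fits several loci enters the whole-number count of each of them, while the divided count splits it among them. Levels are divided reads of a name per 1000000 divided reads of the library (CPM), with exact Poisson 95% intervals. Mature miRNAs are read whole, so no division by length was made. Divided totals ran between 833147 and 11517367 reads, and 3 reads corresponded to 0.261 to 3.60 CPM. Intervals cover counting error only, as no molecular identifiers were used. At 2 dpf 58.55% of the divided reads were miR-10b-5p, and in eye 55.05% were miR-183-5p, so levels in these libraries are pressed down by 1 name. The neuronal miR-124a-3p was highest in female brain, miR-122-5p in liver, miR-499-5p in heart, miR-183-5p in eye and miR-1-3p in male white muscle. These maxima fit the tissue labels. In red muscle, however, miR-1-3p was 1405 CPM (female) and 189.2 CPM (male), against 471.7 and 237.8 CPM in brain. miR-133a-3p was 21280 CPM (female) and 24250 CPM (male) in red muscle, against 61.85 and 38.14 CPM in brain. The name miR-9-5p was highest in testis (20.64 CPM), and miR-9-5p-2 had 28320 and 26210 CPM in brain.

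In adults miR-219 was a miRNA of brain and eye. Its shared 5p arm, miR-219-5p, stood at 331 CPM (315 to 347) in the female brain library and at 126.4 CPM (118 to 135) in that of the male, against 6.98 CPM in eye. White muscle of the female gave 3 reads (0.847 CPM), red muscle of the female gave 1 read (0.116 CPM), and the other 6 non-neural libraries gave 0, where 3 reads would be 0.261 to 3.19 CPM. Both brain libraries therefore stood above every other adult library.

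The 3p arms of mir-219-3 and mir-219-2 followed the same order of tissues in CPM, although with TMM factors the eye level of miR-219-3p-3 lay between the 2 brains. miR-219-3p-2 had 256 CPM in brain of the female and 176 CPM in brain of the male, against 51.4 CPM in eye and at most 1.06 CPM (1 read, ovary) in the 8 non-neural libraries, 5 of which gave 0. For miR-219-3p-3 the 2 brains gave 219.4 CPM (female) and 125 CPM (male), against 65.8 CPM in eye and at most 2.12 CPM (2 reads, ovary) in the 8 non-neural libraries. The 3p arm of mir-219-1 differed, as miR-219-3p had only 2 reads in female brain and 4 in male brain and 0 in eye and all 8 non-neural libraries.

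**Figure D1:**
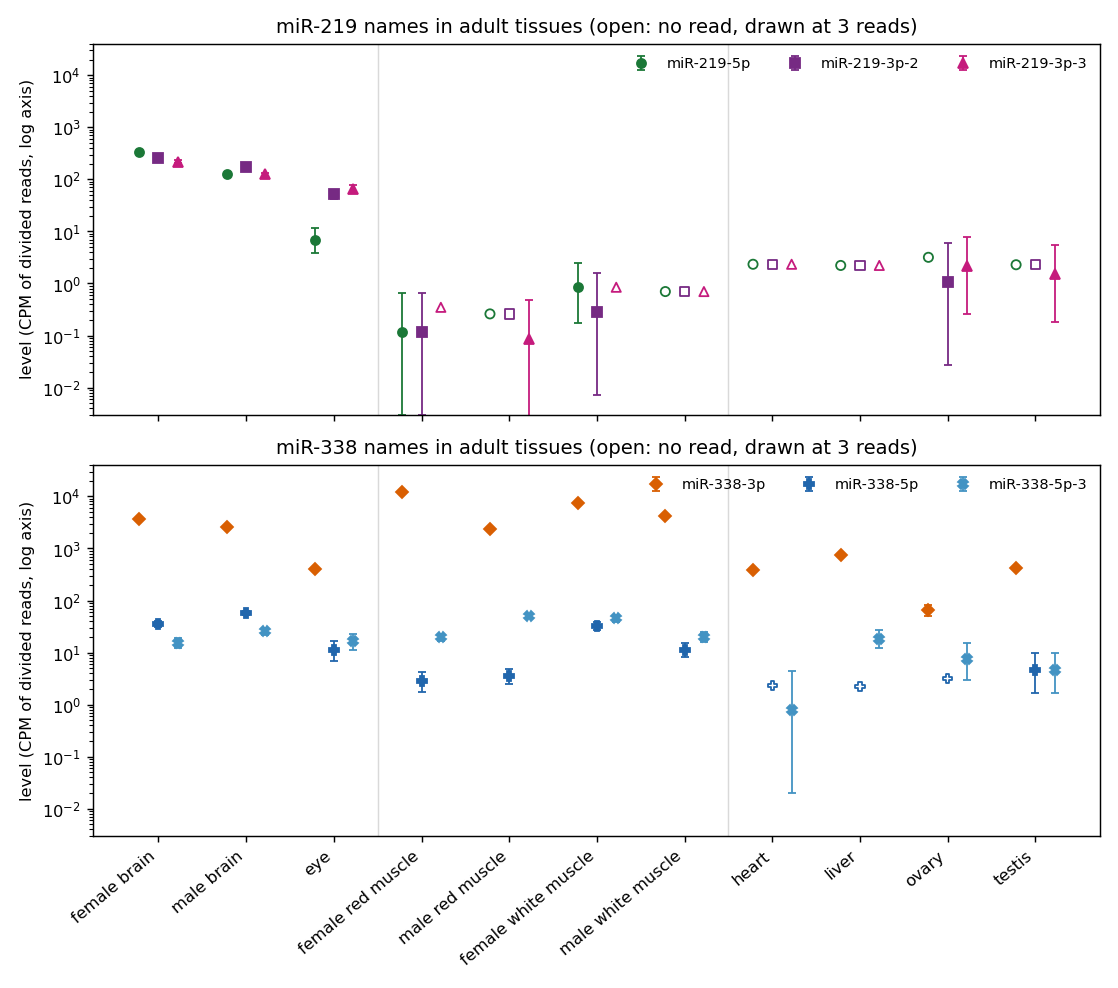
Levels of miR-219 names (upper panel) and miR-338 names (lower panel) in each adult library, in CPM of divided reads on a log axis, with exact Poisson 95% intervals. Open symbols mark libraries with no read, drawn at the CPM of 3 reads. The drawn miR-219 names reach 125 to 331 CPM in brain and at most 2.12 CPM outside brain and eye, while miR-338-3p is highest in female red muscle at 12080 CPM.

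Reads pooled over both brains were 1760 times as frequent for miR-219-5p as in the pooled 8 non-neural adult libraries (95% interval 685 to 6450, from 2536 and 4 reads). The ratio was 2300 (786 to 11200, against 3 reads) for miR-219-3p-2 and 1090 (464 to 3350, against 5 reads) for miR-219-3p-3. Muscle libraries hold most of the pooled non-neural reads, so these ratios are weighted towards muscle. For miR-219-3p-3 ovary gave 2 reads (2.12 CPM), testis 2 reads (1.53 CPM) and male red muscle 1 read (0.0868 CPM). In whole-tissue RNA, fewer cells of a type and less RNA per cell cannot be told apart.

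Brain was tested against the 4 muscle libraries with edgeR on whole-number counts, with adjustment over all entries. Of the 12 members 10 passed the filter of 10 reads in 2 libraries, and 6 of these were higher in brain, where 32.6% of all 494 tested entries were higher, 30.6% lower and 63.2% either. The 5 miR-219 entries passed that filter only through the brain libraries, so their number is no support in itself. Their log2 fold changes were 9.79 to 9.91 for miR-219-5p at its 3 loci, 10.57 (SE 0.96) for miR-219-3p-2 and 11.78 (SE 1.09) for miR-219-3p-3, with adjusted p between 1.18e-06 and 5.32e-06 in edgeR. These fitted values rest on muscle counts of 0 to 3 and so depend on the prior count of the fit. The sixth entry was miR-338-5p, described with its family. Without 1 of the brain libraries no miR-219 entry has 10 reads in 2 libraries, so under this filter none was tested with a single brain. A filter of 10 reads in 1 library would admit these entries, but their values under it are not given here.

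Against all 8 non-neural adult libraries as 1 group, the same 5 miR-219 entries were higher in brain and no miR-338 entry passed in edgeR, where 19.9% of all 507 tested entries were higher, 3.35% lower and 23.3% either. Here too the miR-219 entries reached the filter only through the 2 brains, so nothing is read from their number. The log2 fold changes were 9.92 to 10.05 for miR-219-5p, 10.21 (SE 1.16) for miR-219-3p-2 and 8.87 (SE 1.39) for miR-219-3p-3, with adjusted p from 8.61e-05 to 0.000423 in edgeR. A two-sided exact permutation test over these 10 libraries gave p = 0.0444 for miR-219-5p, miR-219-3p-2 and miR-219-3p-3, the smallest that 45 arrangements allow. miR-219-3p, with 2 and 4 brain reads and a difference of 0.574 in log2 CPM, had the same p in that test. The test therefore does not separate strong members from nearly absent ones. The exact permutation test also gave p = 0.0444 for miR-338-5p, whose log2 fold change was 2.25 (SE 1.49, adjusted p = 0.273 in edgeR) and 3.49 in DESeq2 (adjusted p = 0.0407). Setting the eye among the reference libraries left 3 members called, those of miR-219-5p, where 49 of all 511 tested entries were called. These 3 entries share nearly all their reads and so are 1 measurement. miR-219-3p-2 then had a log2 fold change of 4.27 (adjusted p = 0.223 in edgeR) and miR-219-3p-3 one of 3.57 (adjusted p = 0.305).

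The eye, which holds the retina and so is partly neural, carried miR-219 with few 5p reads. Brain over eye was 30.6 (18.2 to 56.1) for miR-219-5p, but 4.09 (3.36 to 5.03) for miR-219-3p-2 and 2.51 (2.11 to 3.02) for miR-219-3p-3, from 1 eye library. These CPM ratios move with the scaling. With TMM factors of the 16 libraries miR-219-3p-3 was 161 CPM in eye, between female brain (299.6 CPM) and male brain (151 CPM). These factors allow for the weight of miR-183-5p, but were computed on whole-number counts and applied here to divided totals. The miR-219-5p level in eye was 17.1 CPM on that scale, still below the 451.5 CPM of female brain and the 153.4 CPM of male brain. miR-124a-3p was 16000 CPM in the same eye library, against 30370 CPM for the brain of the female and 14670 CPM for that of the male. The summed level of 47 neuronal names was 23720 CPM in eye (17 of them at 0), against 100400 CPM (female) and 97020 CPM (male) in brain, each with 8 at 0, and its part in the difference was not tested.

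The loci of miR-219 could be told apart by their 3p arms but hardly by miR-219-5p. In female brain the whole-number count of miR-219-5p was 1665 at mir-219-3, 1591 at mir-219-2 and 1576 at mir-219-1, so that mir-219-3 exceeded the lowest locus by only 89 reads. In male brain the counts were 821, 712 and 677, where the excess at mir-219-3 was 17.5% of its count, the largest among libraries with 100 or more reads there. Among 3p reads, mir-219-3 gave 53.8% in female brain (Wilson 95% interval 51.8 to 55.8) and 58.4% in male brain (56.2 to 60.5), and mir-219-2 gave 46.1% and 41.4%. mir-219-1 gave 0.0827% of the 3p reads in female brain and 0.196% in male brain. It held 8.61% at 3 dpf (7.27 to 10.2), its highest share among the libraries.

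miR-338-3p, in contrast, was found in all 16 libraries and was not highest in brain. Female red muscle had 12080 CPM, female white muscle 7453 CPM, male white muscle 4216 CPM, the brains 3629 CPM (female) and 2642 CPM (male), and male red muscle 2406 CPM. Below these 6 libraries came the 10 dpf larva at 780 CPM and liver at 744 CPM, whose intervals overlap (721 to 843 and 698 to 791). Testis at 428 CPM, eye at 406 CPM and heart at 379 CPM were also neighbours with overlapping intervals in CPM, and ovary was lowest among adult tissues at 64.8 CPM (49.5 to 83.2). With TMM factors of the 16 libraries the order below the brains and muscles changed, and eye stood at 996 CPM, above the larva (486 CPM), liver (446 CPM), heart (364 CPM) and testis (345 CPM). In female red muscle miR-338-3p was the 17th most abundant name, in female brain the 27th and in male brain the 36th.

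The spread between the 2 red muscle libraries was wider than the differences between tissue means. miR-338-3p averaged 3136 ± 698 CPM in brain (SD, n = 2), 7243 ± 6840 CPM in red muscle (n = 2) and 5834 ± 2289 CPM in white muscle (n = 2). The edgeR log2 fold change of brain over muscle was -1.48 (SE 0.62, adjusted p = 0.0533 in edgeR), and male red muscle lay below both brains in CPM and between them with TMM factors of the 16 libraries. Without the filter on low counts the value was -1.67 (adjusted p = 0.0247 in edgeR), and without male red muscle -1.85 (adjusted p = 0.0204), so the call rests on these choices. Against the 8 non-neural libraries it was -0.55 (SE 1.56, adjusted p = 0.82 in edgeR), and the two-sided exact permutation test on log2 CPM gave a difference of 1.27 with the opposite sign and p = 0.578.

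The neuronal miR-124a-3p was close to absent where miR-338-3p was highest. It was at most 1.97 CPM in red muscle and at most 0.467 CPM in white muscle, and the neuronal list summed to 402.5 to 1138 CPM in the 4 muscle libraries, with 16 to 21 of its 47 names at 0. Female red muscle, the library with most miR-338-3p, also had the highest sum of the 10 blood cell names among the muscle and brain libraries, 20670 CPM against 4310 CPM in male red muscle, 2538 CPM in female white muscle and 2394 CPM in male white muscle. In brain these names summed to 1372 CPM (female) and 791 CPM (male). At most 1 blood cell name was at 0 in any muscle library, against 3 in each brain, and the part of blood in the miR-338-3p level was not tested.

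Red and white muscle hold the slow and the fast fibres of fish. In edgeR 0 of the 10 members passed between them, where 11.1% of all 494 entries did (5.06% higher and 6.07% lower in red). The miR-219 entries had at most 3 reads in a muscle library and were in this fit only through the brains. The miR-338-3p entries share nearly all their reads and so are 1 measurement. Nothing is therefore read from the number of members. At an unadjusted p under 0.05 there were 130 entries, 1 of them a member, and DESeq2 called 1 member. That member was miR-338-5p, with 2.79 CPM (female) and 3.47 CPM (male) in red muscle, against 32.5 CPM (female) and 11.3 CPM (male) in white muscle. The edgeR log2 fold change of miR-338-5p was -2.59 (SE 0.87, adjusted p = 0.0783 in edgeR, adjusted p = 0.0138 in DESeq2). For miR-338-3p the red over white value was 0.24 (SE 0.67, adjusted p = 0.88 in edgeR) and it turned to -1.13 without female red muscle.

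The 5p arms of miR-338 were scarce, and the locus they were named for varied between tissues. miR-338-5p had 35.6 CPM (female) and 57.1 CPM (male) in brain, above all 4 muscle libraries, although the intervals of female brain (30.6 to 41.2) and female white muscle (26.8 to 38.97) overlapped. Its log2 fold change over muscle was 1.89 (SE 0.68, adjusted p = 0.0273 in edgeR). Against white muscle alone, a comparison added after seeing the data, the value was 0.59 (adjusted p = 0.545 in edgeR), and leaving out male white muscle gave 1.44 (adjusted p = 0.16). Without female brain it was 2.33 (adjusted p = 0.0385 in edgeR), and without male brain 1.90 (adjusted p = 0.0943), where the lone brain is assumed to vary like the other groups. With 10 reads in 1 library as the filter, a choice made after seeing the data, the values were 2.04 (adjusted p = 0.0574) and 2.20 (adjusted p = 0.0544). In female and male libraries miR-338-5p-3 had 15.5 and 25.7 CPM in brain, 19.6 and 51.4 CPM in red muscle, and 45.7 and 19.9 CPM in white muscle, an overlapping range. Its brain over muscle log2 fold change was -1.38 (SE 0.79, adjusted p = 0.144 in edgeR). miR-338-5p-2 was nearly unread, with 5 reads in female red muscle, 2 at 4 dpf, 1 at 5 dpf, 1 in male white muscle and 0 in the other 12 libraries.

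Within the 5p reads of miR-338 the share named miR-338-5p-3 does not depend on library scaling. It was 30.4% in female brain (25.1 to 36.2) and 31.0% in male brain (27.3 to 34.96), with nearly all the rest from mir-338-1. Red muscle had 85.4% (79.8 to 89.6, female) and 93.7% (91.5 to 95.3, male), and white muscle had 58.5% (52.6 to 64.1) and 63.3% (55.3 to 71.3). The 3 tissues did not overlap, and the means were 30.7% in brain and 75.2% in the 4 muscle libraries. The difference of -44.51 points had an exact two-sided permutation p = 0.133, the smallest that 15 arrangements allow. In liver all 25 of the 5p reads were miR-338-5p-3 (86.7 to 100%), and in eye 33 of 55 were (60.0%, 46.8 to 71.9).

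**Figure D2:**
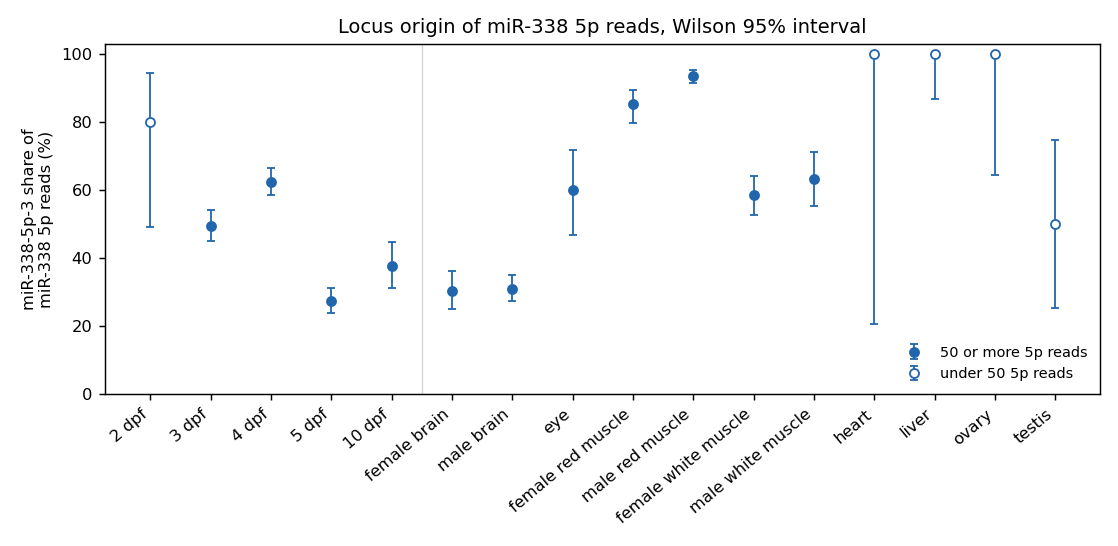
Share of miR-338 5p reads that carry the name miR-338-5p-3 (mir-338-3), in percent, for the stages and the adult libraries, with Wilson 95% intervals. Filled points have 50 or more 5p reads and open points fewer. Both brains lie near 31%, white muscle near 60% and red muscle above 85%.

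miR-338-3p itself could not be placed at a locus outside 2 dpf. At 2 dpf its whole-number count was 32 at mir-338-2 and 16 at each other hairpin, so part of these few reads fitted mir-338-2 alone. That difference of 16 reads was the largest in any library. Where a hairpin had 100 or more reads, its excess over the lowest locus was at most 1.27% of its count. It is thus not given by these counts which hairpin supplied the 12080 CPM of female red muscle.

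The balance of the arms differed between the families and over age. Over all loci in divided reads, 5p reads were 41.0% of miR-219 in female brain (39.5 to 42.5), 29.6% in male brain (27.9 to 31.3) and 5.62% in eye (3.38 to 9.22). In the embryo the 5p share of miR-219 was 0.334% at 2 dpf (0.130 to 0.857, 4 of 1196 reads) and then 15.9, 22.3, 37.9 and 34.7% at 3, 4, 5 and 10 dpf. The intervals of neighbouring stages did not overlap up to 5 dpf. In all 8 libraries with 50 or more miR-219 reads the 3p arm thus held most of the reads.

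Single miR-219 hairpins gave another picture when reads shared between loci were counted in full at each. For mir-219-3 the 5p share was then 56.1% in female brain (54.3 to 57.9) and 40.8% in male brain (38.7 to 43.0), so that the leading arm differed between the brains. For mir-219-2 it was 58.8% in female brain and 45.7% in male brain. In divided reads both hairpins were led by 3p in both brains, with 5p shares of 32.1% and 32.6% for the female and 23.7% and 23.6% for the male. For these 2 hairpins the order, a higher 5p share in female brain, held in both ways of counting, while the leading arm of the female brain did not. Both countings rest on the same shared miR-219-5p reads, so their agreement is no separate support. At both hairpins the 5p reads beyond the lowest locus were fewer in female than in male brain. Nothing is therefore read from this order about arm use at either hairpin. For mir-219-1, whose own 3p arm had 2 and 4 reads, the 5p share in full counts was 99.9% (female) and 99.4% (male). In divided reads it was 99.6% (female) and 98.3% (male). The 5p count of mir-219-1 held 0 reads beyond the lowest locus in both brains. Its 5p lead was thus set by reads shared between loci under both countings, and nothing is read from it about arm use at mir-219-1.

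**Figure D3:**
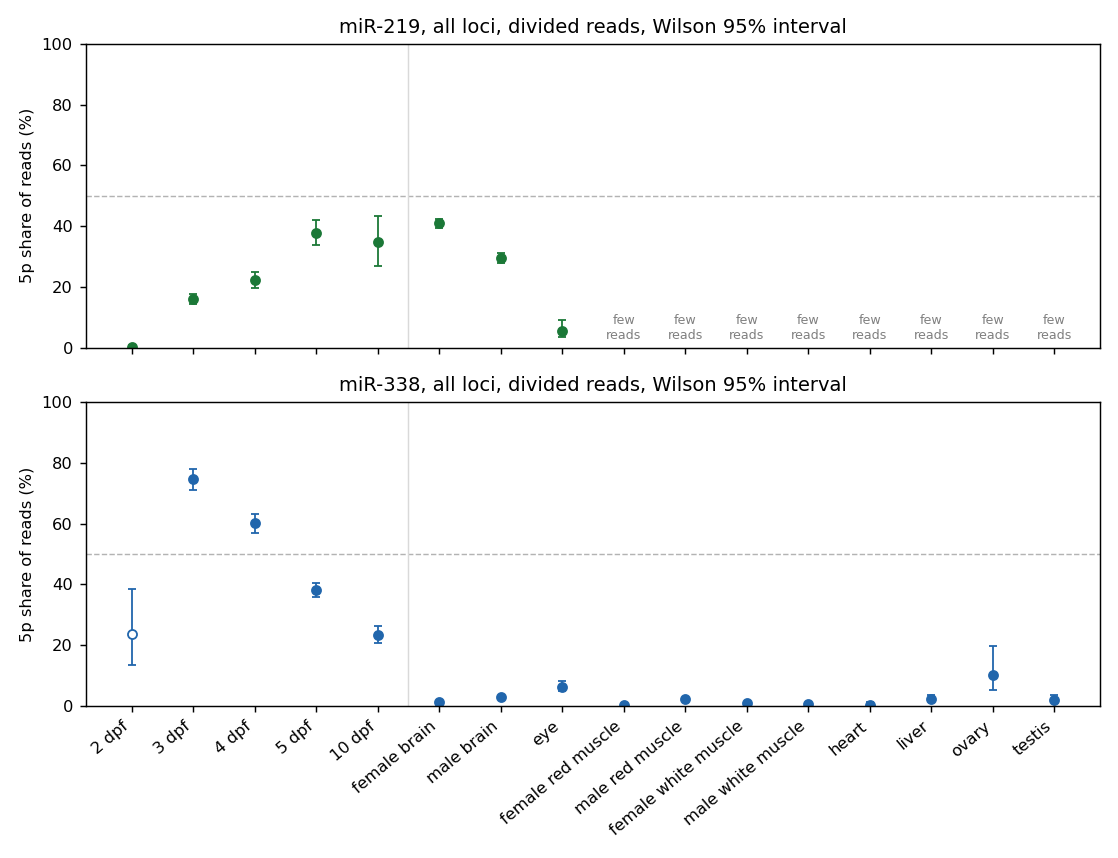
Share of 5p reads among all reads of miR-219 (upper panel) and miR-338 (lower panel), in percent of divided reads over all loci, with Wilson 95% intervals and a dashed line at 50%. The open point has under 50 reads, and libraries with too few miR-219 reads are marked. The miR-219 share is 0.334% at 2 dpf and 37.9% at 5 dpf, and the miR-338 share is above 50% only at 3 and 4 dpf.

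For miR-338 the 5p share was largest at 3 dpf and smaller at each later stage. The 2 dpf library had 23.8% (13.5 to 38.5, 42 reads). The share was 74.6% (71.0 to 77.9) a day later, 60.2% (57.0 to 63.3) at 4 dpf, 38.1% (35.7 to 40.6) at 5 dpf and 23.4% (20.7 to 26.4) in the 10 dpf larva. Adult libraries lay between 0.190% (female red muscle) and 10.3% (ovary, 68 reads), with 1.39% in female brain and 3.04% in male brain. Over all loci, 5p reads were thus the larger part at 3 and 4 dpf alone among the 15 libraries with 50 or more reads. At single hairpins counted in full the 5p share exceeded the 3p share beyond its interval only at 3 dpf. It was 59.7% for mir-338-1 and 59.6% for mir-338-3, and mir-338-3 was undecided at 4 dpf (48.5%, 44.9 to 52.2). In divided reads mir-338-1 was led by 5p at 3, 4 and 5 dpf (81.3, 62.7 and 57.2%). On the same counting mir-338-3 was led by 5p at 3 and 4 dpf (81.6 and 73.9%). The shared miR-338-3p reads were split almost evenly over the 3 hairpins, as 309, 308 and 308 divided reads at 5 dpf. The leads in divided reads depend on that split, and at 5 dpf mir-338-1 had 30.9% in full counts. Nothing is therefore read from these divided leads about arm use at a single hairpin.

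Over the 5 stages, miR-219-5p was 2.01, 59.2, 98.4, 56.1 and 51.6 CPM at 2, 3, 4, 5 and 10 dpf. The largest step was that between 2 and 3 dpf, a ratio of 29.4 (11.4 to 109, from 4 reads at 2 dpf). miR-219-3p-2 was instead highest at 2 dpf, with 524, 185, 249.6, 40.9 and 52.8 CPM, and miR-219-3p-3 had 72.4, 101, 80.3, 44.98 and 43.2 CPM. miR-219-3p of mir-219-1 had 3.52, 26.9, 13.9, 5.96 and 1.20 CPM. At 2 dpf mir-219-3 thus supplied 87.3% of the miR-219 3p reads (85.3 to 89.1), against 44.5% at 5 dpf.

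miR-338-3p was 16.1, 34.0, 172, 251 and 780 CPM at the same stages, a ratio of 48.5 (34.0 to 71.5) between 10 and 2 dpf in CPM that is much smaller with TMM factors. miR-338-5p was 1.01, 50.4, 96.5, 112 and 149 CPM, and miR-338-5p-3 was 4.02, 49.5, 162, 42.3 and 90.0 CPM, highest at 4 dpf. Every step that involves 2 dpf depends on scaling, because TMM factors of the 5 stage libraries lift the 2 dpf library. On that scale, chosen after seeing the data, miR-338-3p was 87.6 CPM at 2 dpf, 28.1 CPM at 3 dpf and 489 CPM at 10 dpf, and miR-219-3p-3 was 394 and 83.2 CPM at 2 and 3 dpf, for both names the opposite order of these 2 stages to that in CPM. miR-219-5p was 11.0 CPM at 2 dpf and 48.9 CPM at 3 dpf on that scale, and so was higher at 3 dpf under both scalings. Across the same 2 libraries the summed level of the neuronal list was 2653 CPM at 2 dpf and 57850 CPM at 3 dpf, and its part in the members' steps was not tested.

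**Figure D4:**
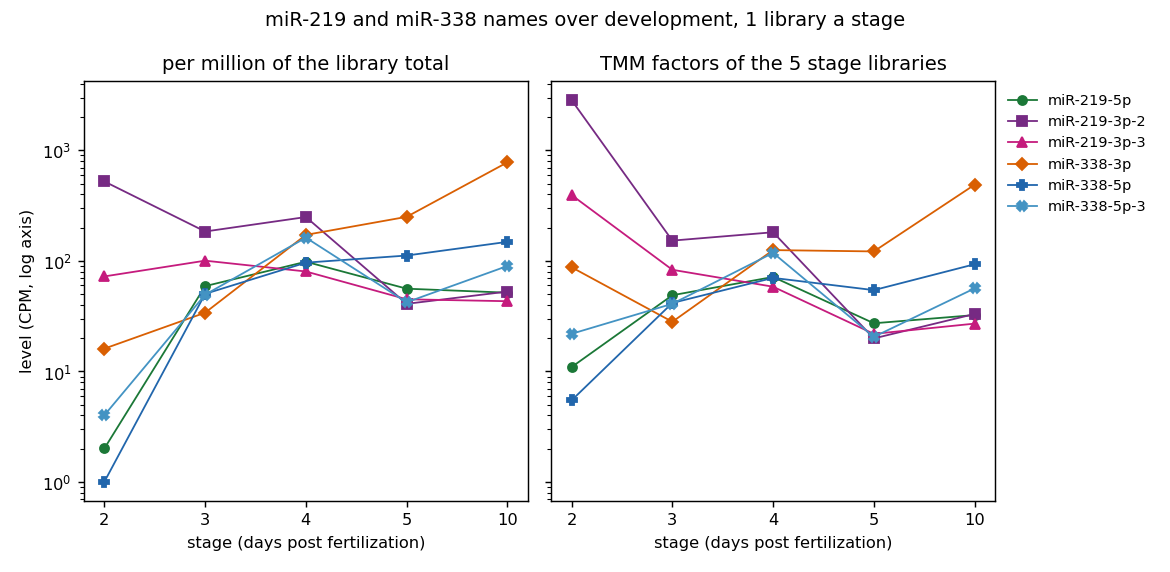
Levels of 6 names at 2, 3, 4, 5 and 10 dpf, 1 library each, in CPM of the library total (left) and with TMM factors of the 5 stage libraries (right), on a log axis. In CPM miR-338-3p reaches 780 at 10 dpf while miR-219-3p-2 is highest at 2 dpf with 524. On the TMM scale miR-338-3p at 2 dpf (87.6) lies above 3 dpf (28.1).

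A slope over the log2 of the day was fitted in edgeR, which borrows the spread between entries because each stage has 1 library. Of the 11 members tested 3 fell with age, where 6.45% of all 527 entries fell, 2.09% rose and 8.54% did either. miR-219-3p-2 fell by 3.07 log2 units per doubling of age (SE 0.58, adjusted p = 1.90e-05 in edgeR), miR-219-3p-3 by 1.98 (SE 0.59, adjusted p = 0.0155) and miR-219-3p by 2.58 (SE 0.89, adjusted p = 0.0436). miR-338-3p had slopes of 0.86 to 1.29 over its 3 loci (adjusted p = 0.326 to 0.14 in edgeR), miR-338-5p 0.97 (adjusted p = 0.482), and miR-219-5p slopes between -0.07 and 0.08 (adjusted p = 0.989). The 3 calls are fragile. 0 members passed without the 2 dpf library, without the 4 dpf library or with library totals alone as scaling, which moved the median slope of all entries to 1.20, against 0.15 with TMM factors.

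Female and male libraries were compared over brain, red muscle and white muscle with tissue as a block. 0 of the 10 members passed in edgeR, as did 0 of all 494 entries (0.0%), with 5 entries at an unadjusted p under 0.05 and 0 called by DESeq2. 3 of those 5 were the miR-219-5p entries, which share nearly all their reads and so are 1 measurement, with log2 fold changes of 2.13 to 2.28 (unadjusted p = 0.0355 to 0.0461, adjusted p = 0.993 in edgeR). Their counts came from brain, apart from 4 reads in the female muscle libraries. Between the single brain libraries the ratio of female over male was 2.62 (2.41 to 2.84) for miR-219-5p, 1.46 (1.34 to 1.58) for miR-219-3p-2, 1.76 (1.61 to 1.93) for miR-219-3p-3 and 1.37 (1.35 to 1.40) for miR-338-3p.

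miR-338-3p was higher in the female library of each of the 3 tissues, with further ratios of 5.02 (4.95 to 5.09) in red muscle and 1.77 (1.73 to 1.80) in white muscle. The log2 fold change of 1.00 (SE 0.56, adjusted p = 0.993 in edgeR) did not pass. Each ratio compares 1 library of each sex. Between the same female and male brains the neuronal list summed to 100400 and 97020 CPM and miR-124a-3p stood at 30370 and 14670 CPM, and their part in the miR-219 ratios was not tested.

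Across the 16 libraries the most read name of each family in brain of the female, miR-219-5p and miR-338-3p, had unlike patterns. Pearson's r of log2(CPM + 1) between them was -0.10 and Spearman's rho -0.08, as a description over libraries that differ in tissue, depth and leading miRNA. miR-219-5p and miR-124a-3p had r = 0.89 (rho 0.71), and miR-338-3p and miR-124a-3p r = -0.18 (rho -0.26). miR-338-3p also differed in pattern from its own 5p arms, with r = 0.13 to miR-338-5p and 0.20 to miR-338-5p-3.

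Among 399 names that reached 10 CPM in a library, those most like miR-219-5p were miR-7a-3p-2 (r = 0.97), miR-9-5p-2 (0.96), miR-9-3p-3 (0.94), miR-9-3p-2 (0.93) and miR-n162-5p (0.93). miR-9 is a miRNA of neural progenitors and neurons, and miR-9-5p-2 had 28320 CPM (female) and 26210 CPM (male) in brain, against 1654 CPM in eye. With a pseudocount of 10 in place of 1, only 2 of these 5 names remained among the first 5, miR-7a-3p-2 and miR-9-5p-2. Closest to miR-338-3p were miR-29a-3p (r = 0.89), let-7b-3p (0.81), miR-210-5p (0.77), miR-101b-5p (0.74) and miR-26a-5p (0.73), with maxima in muscle for all but miR-101b-5p, which was highest in liver.

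Of the neuronal list 64 entries were tested between brain and muscle in edgeR, and 59 were higher and 0 lower in brain. Of all 494 entries 32.6% were higher and 30.6% lower. The median log2 fold change was 9.05 on the list, beside -0.13 over all entries. Neuronal entries near absent from muscle could pass the filter of 10 reads in 2 libraries only through the 2 brains. Nothing is therefore read from their number. The most abundant neuronal names in brain were miR-9-5p-2, miR-124a-3p, miR-128-3p and miR-212-5p, with log2 fold changes of 10.3, 14.3, 4.42 and 8.06. Other families are tied to the oligodendrocyte lineage in mammals, namely miR-23, miR-32, miR-17-92 and miR-138, which is also in the neuronal list. They had 28 entries tested, of which 4 were higher and 6 lower in brain, with a median of 0.12. Both counts are below those shares of all entries, so nothing is read from them about the list. miR-92b-3p was higher (5.08, adjusted p = 0.000128 in edgeR) and miR-92a-3p lower (-1.81 and -1.99 at its loci, adjusted p = 0.0279 and 0.0179), while miR-23b-3p (0.91, adjusted p = 0.147) and miR-19b-3p (1.04, adjusted p = 0.162) did not pass. Beside the same shares of all entries, all 13 muscle entries, 8 of 11 blood cell and 6 of 10 epithelial entries were lower in brain. So were 3 of 6 endothelial and smooth muscle entries and 1 of 2 liver entries. Of 14 retina and lens entries 6 were higher and 2 lower. List entries near absent from brain could likewise pass the filter only through muscle, so nothing is read from these numbers either.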

How the data were processed

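RNA was extracted with Trizol, TruSeq small RNA libraries were made, and 16 libraries were sequenced on an Illumina GAIIx. The authors deposited, for each library, whole-number counts of reads per arm and locus, in which a read is counted at each locus it fits, and expected counts, in which it is divided among those loci. Neither is normalized. Precursors were placed on oreNil2 with PaTMan, and the submitters' processing notes name DESeq. The counting tool is not given in the sources used here. Of 736 lines, 2 without a mature name (0 reads) were left out. The files hold no positions, so none are given.

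Sample identity came from the labels, and sex from the first letter of the titles. Members were all entries named miR-219 or miR-338, and lists were chosen by family. Members and lists were chosen with earlier results of these data known. Also named are the 5 names most like miR-219-5p and miR-338-3p over the 16 libraries and, by the rule, the 4 most abundant names of each list in brain, given here for the neuronal and oligodendrocyte lists.

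CPM, Poisson, Wilson and permutation values were computed in Python 3.11.15 (numpy 2.4.6, scipy 1.17.1, pandas 2.3.3, matplotlib 3.10.9). Whole-number counts were tested in R 4.3.3 with edgeR 4.0.16 (limma 3.58.1; TMM, glmQLFit, glmQLFTest) over entries with 10 reads in 2 libraries of the fit, with Benjamini-Hochberg adjusted p under 0.05 as threshold. Brain, red and white muscle were fitted together. DESeq2 1.42.0, other scalings, filters and single libraries left out were alternatives. Standard errors are the log2 fold change over the square root of F. Only the main edgeR fit of each comparison was run on simulated data. Whole-number totals were 1989045 to 27503766 reads (median 7043183), and 3 counts set the floor.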

Additional observations from a re-analysis of the deposited data

Results flagged for a closer look

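In 4 instances a member of miR-338 differed in opposite directions between groups, with 1 library on each side, and the difference itself was not tested. On the log2 scale of the CPM ratio, miR-338-3p in red over white muscle was 0.697 in the female and -0.809 in the male. miR-338-5p in female over male libraries was 1.52 in white muscle and -0.682 in brain. miR-338-5p-3 in female over male libraries was 1.20 in white muscle, but -1.39 in red muscle and -0.725 in brain. The same name in red over white muscle was -1.22 in the female and 1.37 in the male. The counts of miR-338-5p-3 behind these values were 169 (female) and 592 (male) divided reads in red muscle and 162 (female) and 85.5 (male) in white muscle. No adult tissue or stage has 4 or more libraries, so single libraries were not compared with the rest of a group.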

How the results depend on the processing

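The members called in each comparison, counted in either direction, changed with some choices. The 6 members called in the main fit of brain over muscle were all higher in brain. Without male red muscle the count also takes in miR-338-3p, which was lower in brain. Its 3 entries share nearly all their reads and so are 1 measurement. Nothing is therefore read from the size of that count. Brain over muscle called 6 members, and 0 to 9 when 1 library was left out (0 without male brain, 1 without female brain, 9 without male red muscle). Brain over the non-neural libraries called 5, and 3 by divided counts per name, 3 with the eye added and 0 to 5 when 1 library was left out (0 without either brain). The 5 entries called in that main fit carry 3 names, as the 3 miR-219-5p entries are 1 name in the fit by name. The counts of 5 entries and 3 names are thus in different units. Red over white muscle called 0, and 1 with DESeq2. The stage slope called 3, and 0 with library totals only, 1 over the day instead of its log2, and 0 to 2 when 1 stage was left out. The miR-219 entries fall under the filter without 1 brain, which accounts for their loss there. Counts by name are in another unit, and for the other changes the cause was not tested. The share of all entries called is not given for every fit with 1 library left out. Nothing is therefore read from how far the member counts moved. For brain over non-neural libraries miR-338-3p reversed to 1.27 in the exact permutation test (p = 0.578). With 1 library left out, red over white muscle ran between -4.39 and 2.17 for miR-219-5p and between -2.94 and 2.17 for miR-219-3p-2 (positive without female white), between -1.13 and 0.86 for miR-338-3p (negative without female red) and between -0.93 and 1.05 for miR-338-5p-3 (negative without male red), and female over male ran between -1.20 and 0.41 for miR-338-5p-3 (positive without either red muscle library). The miR-219 values among these rest on at most 3 reads in a muscle library, so nothing is read from their range or sign. With sex as replicate block, brain over muscle called 6 and red over white 0, as without the block. Female red and female white muscle were read as 1 fish from a shared code in their sample names, and the block otherwise rests on sex letters. Counts over all entries moved too: brain over non-neural 118, but 199 with DESeq2, 69 by name, 49 with the eye and 52 or 56 without a brain. Brain over muscle called 312, but 200 and 175 without a brain. Red over white called 55, but 33 with totals, 92 with DESeq2, 24 by name and 5 to 29 without 1 muscle library other than female red. The stage slope called 45, but 0 with totals, 73 with DESeq2, 17 over the day and 5 or 16 without some stages. Entries tested were 507 for brain over non-neural libraries (372 names, 511 entries with the eye). Brain over muscle and red over white each had 494 entries (362 names), and the stage slope 527. Numbers tested with 1 library left out are not given here. Depth limits the shallower non-neural libraries, those of ovary, testis, heart and liver, where 3 reads are 2.22 CPM (liver) to 3.19 CPM (ovary).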
